A study of Mus musculus with 6 samples.

Results

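The RNA of 31 genes of glycolysis, gluconeogenesis and fructose metabolism was followed in renal glomeruli, the capillary filters of the kidney, isolated from mice in which Parva, the gene of alpha-parvin, was or was not targeted in podocytes. The genes were chosen by name: 18 of glycolysis and lactate formation, 4 of the pyruvate dehydrogenase complex and the kinases that switch it off, 6 of gluconeogenesis, 1 of fructose breakdown and 2 glucose transporters. All 31 were found among the 27179 rows of the deposited table. All 31 also passed the filter of a mean of at least 10 normalised counts over the 6 libraries, which left 13946 genes for testing, and the lowest mean of any of them in a genotype was 11.3 (Hk2 in WT). Pdk2, a further kinase of the complex, was left out because 1 library held an extreme value of it.

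The 3 KO mice (KO-1 to KO-3) had the genotype Parva-fl/fl*hNPHS2Cre, in which a human podocyte gene promoter drives Cre. The 3 WT mice (WT-1 to WT-3) were Parva-fl/fl with no Cre named. Both groups thus carried the floxed gene and only the KO mice are labelled with Cre. No Cre-only control was analysed here. All mice were 9 weeks old, male and on a C57BL/6 mixed background, and the protocol, which is the same for both groups, speaks of mild proteinuria. Magnetic beads were perfused to collect whole glomeruli, so each library mixed podocytes, endothelial cells, mesangial cells and whatever tubule came along. In such bulk RNA, fewer cells of a type and less RNA per cell cannot be told apart. The labels number the mice within each genotype, and the p-values measure only the spread between these samples.

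Glycolysis splits glucose into pyruvate, which lactate dehydrogenase turns into lactate or the pyruvate dehydrogenase complex feeds into the citrate cycle. Gluconeogenesis runs the reversible middle steps of the same chain backwards and goes around the irreversible ones with enzymes of its own: pyruvate carboxylase, phosphoenolpyruvate carboxykinase, fructose bisphosphatase and glucose-6-phosphatase. In the kidney, gluconeogenesis and fructose breakdown are known as work of the proximal tubule, the stretch of nephron that follows the glomerulus. Podocytes, endothelial cells and mesangial cells are known to carry the widespread glycolytic isozymes instead.

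The values are normalised counts, reads per gene divided by a size factor of the library, and the libraries held 11886828 to 20552984 whole reads. A gene is called higher or lower in KO where the linear model of limma, on log2(normalised count + 1), gave an adjusted p below 0.05 (Benjamini-Hochberg over the 13946 genes tested, two-sided); SE is the standard error of the log2 change. Where a gene's 3 values per genotype follow each other, they stand in the order of the mouse numbers. Parva itself stood at 6585, 7519.7 and 7889.8 normalised counts in WT and 2288, 2338 and 1942 in KO, a log2 change of -1.74 (SE 0.12, limma adjusted p = 0.0106), in the direction the labels give. Of 21 proximal tubule markers, 18 were higher in KO and none was lower. Their summed level ran from 119862 to 262837 normalised counts in WT and from 297135 to 456367 in KO, and none of them was at 0 in any library. Of 12 distal tubule markers 3 were higher, with sums of 10637 to 35888 in WT and 34165 to 73182 in KO. Lower in KO were 7 of 15 podocyte, 11 of 14 endothelial and 9 of 10 mesangial markers, and none of these was at 0 in any library. The summed podocyte markers were 206966 to 242558 in WT and 148698 to 203292 in KO. Of 9 immune markers tested 0 passed limma's test, also at an unadjusted p under 0.05, with Cd3e at 0 in a library, and 1 of 2 erythroid markers tested was lower. WT-1 stood apart from the other WT libraries, with proximal tubule markers at 262837 against 119862 in WT-2 and 120976 in WT-3. It was also the highest WT library for 27 of the 31 genes, against 37.1% of all genes tested.

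Of the 31 genes, 17 were higher in KO and 1 was lower, and 13 did not pass the test. Among all 13946 genes tested, 22.1% passed the same test, 13.5% higher and 8.58% lower. The log2 change ran from -0.37 for Pck2 to 2.09 for Fbp2, with a median of 0.69 against -0.01 over all genes tested. In 19 of the genes every KO library lay above every WT library, and in 1 every KO library lay below. Over all genes those shares were 23.2% and 21.9%. With libraries scaled to equal endothelial and mesangial markers, which lifts the median of all genes by 0.69 on the log2 scale, 27 of the 31 genes were higher and 0 lower, beside 9596 and 43 of all genes. Without WT-1 the count was 20 higher and 1 lower, beside 2599 and 1695 of all genes. But without any one of WT-2, WT-3, KO-2 or KO-3 limma passed 0 of the 31 in either direction. It then called 0 to 4 genes in the whole table. At an unadjusted limma p under 0.05, 18 to 23 of the 31 were higher there and 1 lower. Of all 13946 genes tested, 3939 to 4924 had such a p in these fits, in either direction. Without KO-1 limma passed 12 higher and 0 lower, beside 1281 and 781 of all genes.

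**Figure D1:**
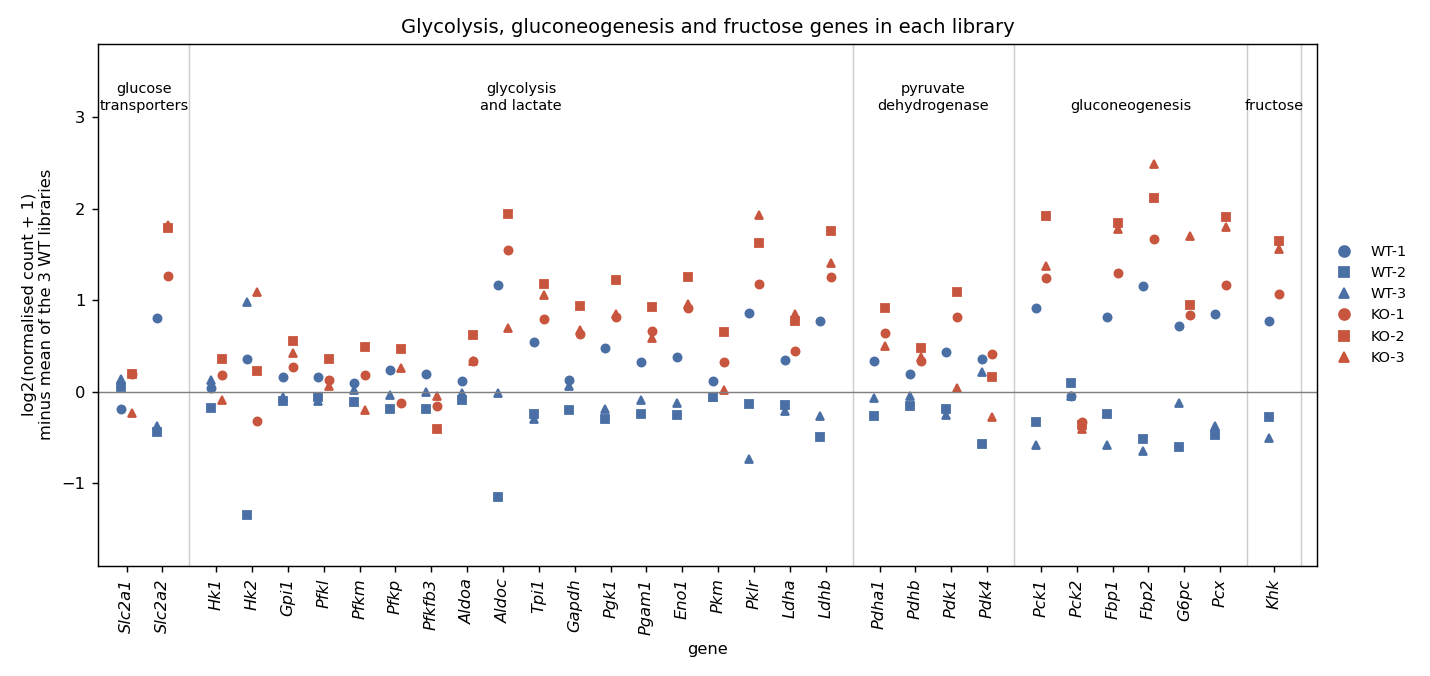
Log2(normalised count + 1) of each of the 31 genes in each library, minus the mean of the 3 WT libraries for that gene, grouped by role; blue symbols are WT libraries and red symbols KO libraries. The red symbols lie above all blue ones for 19 genes and below them only for Pck2, and the WT-1 circle is the top blue symbol for 27 of the 31 genes.

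The 250 bases upstream of the transcription start were read for the 31 genes from RefSeq promoters of the mouse build GRCm38.p6, which is mm10, and all 31 matched, with 46 promoters between them. Each was searched on both strands for 10 letter strings. They were CAAAGTC for the tubule and liver factor HNF4, TGACG of the cyclic AMP response element, and longer forms of both. The rest were ACGTG of the hypoxia response element with its variant GCGTG, the TATA box TATAAA, the CCAAT box and the GC box CCGCCC. A longer form contains the shorter one, and TGACG and ACGTG can overlap. TGACG is shown in its setting before the gluconeogenic Pck1, and ACGTG before a pair of glycolytic genes, chosen from those with a match. Capitals mark the string on either strand, and each stretch runs 5′ to 3′ on the plus strand and ends before the first exon of GENCODE M21.
Pck1 at chr2:173152823-173153047: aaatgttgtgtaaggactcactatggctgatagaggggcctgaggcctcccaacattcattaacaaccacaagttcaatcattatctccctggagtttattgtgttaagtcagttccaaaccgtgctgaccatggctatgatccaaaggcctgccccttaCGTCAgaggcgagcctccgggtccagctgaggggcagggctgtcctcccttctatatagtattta
Ldha at chr7:46845554-46845803: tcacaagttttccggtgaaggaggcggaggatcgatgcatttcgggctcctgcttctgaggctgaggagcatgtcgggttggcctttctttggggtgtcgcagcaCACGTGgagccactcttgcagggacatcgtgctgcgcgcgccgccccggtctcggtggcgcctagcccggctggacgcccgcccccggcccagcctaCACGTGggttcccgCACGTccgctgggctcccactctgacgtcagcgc
Pgk1 at chrX:106186850-106187099: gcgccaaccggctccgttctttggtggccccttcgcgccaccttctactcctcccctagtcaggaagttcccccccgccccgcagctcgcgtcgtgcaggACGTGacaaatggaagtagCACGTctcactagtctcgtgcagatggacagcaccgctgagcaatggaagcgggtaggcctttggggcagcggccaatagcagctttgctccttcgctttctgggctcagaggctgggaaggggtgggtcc
The string TGACG began 90 bases upstream of the Pck1 start. It was present before 7 of the 31 genes, 3 of them of gluconeogenesis and fructose and 3 of glycolysis and lactate, and 17.8% of 32851 mouse promoters of the same length held it. Ldha carried ACGTG in 3 places of the promoter shown, one of 2 that RefSeq gives it, some of them read on both strands, and Pgk1 carried it in 2. That string was present before 13 of the 31 genes, 8 of them of glycolysis and lactate and 3 of gluconeogenesis and fructose, against 16.6% of all promoters. CAAAGTC, part of the HNF4 site, was present before Fbp2 alone (3.84% of all promoters). Of the other strings, GCGTG was present before 17 of the 31 genes (28.2% of all promoters) and CCGCCC before 19 (32.7%). CCAAT was present before 15 (33.85%) and TATAAA before 2 (12.4%). The longer forms TGACGTCA, TGACGTAA and CAAAGTCCA were present before 1, 1 and 0 genes (1.546%, 0.4475% and 0.3835%). The counts are per gene and the shares per promoter. Genes with several promoters had several chances to hold a string, and a match is a description of letters, not of binding.

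Gene spans given in parentheses are RefSeq's on the same build. Glucose enters cells through carriers of the Slc2a family, and of the pair measured here Slc2a2 passed the test and Slc2a1 did not. Slc2a2, the low-affinity carrier of proximal tubule and liver cells (chr3:28697903-28728361), stood at 710.5, 299 and 314 normalised counts in WT and 977, 1408 and 1441 in KO. All KO libraries lay above all WT libraries, with WT-1 the closest. Its log2 change was 1.63 (SE 0.34, limma adjusted p = 0.0286), a ratio of means of 2.89. Slc2a1, the widespread carrier (chr4:119108745-119137330), stood at 473, 561 and 595 in WT and 617, 618 and 459 in KO, with overlapping groups. Its log2 change of 0.05 (SE 0.15, limma adjusted p = 0.828) turned to -0.01 under upper quartile scaling.

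Hexokinases and phosphofructokinases catalyse the irreversible entry steps of glycolysis, and none of Hk1, Hk2, Pfkl, Pfkm and Pfkp passed the test. Hkdc1, a further hexokinase-like gene named here after its values were seen, was higher, at 28.2, 11.9 and 10.7 normalised counts in WT and 56.7, 59.6 and 29.5 in KO, a log2 change of 1.53 (SE 0.45, limma adjusted p = 0.0496). Hk1, the ubiquitous hexokinase, stood at 1524, 1310.4 and 1616 normalised counts in WT and 1678, 1888 and 1390.2 in KO. The groups overlapped, and the log2 change was 0.15 (SE 0.14, limma adjusted p = 0.451). Hk2, the insulin-responsive hexokinase of muscle and fat, was barely counted, at 11.9, 2.97 and 18.9 in WT and 7.09, 10.8 and 20.4 in KO, and a difference in it was not detectable at this depth. The 3 phosphofructokinase subunits Pfkl, Pfkm and Pfkp had log2 changes of 0.18, 0.16 and 0.20, with limma adjusted p of 0.281, 0.523 and 0.426 and overlapping groups in each. Pfkfb3 makes fructose 2,6-bisphosphate, the strongest activator of phosphofructokinase, and was, besides Pck2, the only gene of the 31 with a lower mean in KO, at 322, 247 and 279.8 against 252, 212 and 272. Its log2 change was -0.20 (SE 0.15, limma adjusted p = 0.340), and it became 0.49 when libraries were scaled to equal endothelial and mesangial markers, which is below the lift of 0.69 that this scaling gives the median gene.

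Pyruvate kinase, the irreversible exit of glycolysis, exists as Pkm in most tissues and as Pklr in liver, red cells and proximal tubule. Pkm stood at 5210.1, 4595 and 4595 normalised counts in WT and 5985, 7526 and 4845 in KO. KO-3 lay below WT-1, so the groups overlapped, and the log2 change was 0.33 (SE 0.17, limma adjusted p = 0.184). Pklr (chr3:89136122-89146815) stood at 129, 64.3 and 42.0 in WT and 161, 219.8 and 272 in KO. Here every KO library was above every WT library, and the log2 change was 1.58 (SE 0.40, limma adjusted p = 0.0357). Of the 8 genes of steps that belong to glycolysis alone (Hk1, Hk2, Pfkl, Pfkm, Pfkp, Pfkfb3, Pkm and Pklr, a grouping chosen after the values were seen), Pklr alone passed the test, and the median log2 change was 0.19.

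Of the 8 genes of reversible steps that both pathways use, set apart in the same grouping, 6 rose and none fell, with a median log2 change of 0.85. Eno1, the enolase of most tissues (chr4:150236708-150248879), stood at 3681, 2356 and 2582 normalised counts in WT and 5327, 6709 and 5499 in KO. The lowest KO library lay well above WT-1, the highest WT library, and the log2 change was 1.04 (SE 0.18, limma adjusted p = 0.0286). Tpi1, triose phosphate isomerase (chr6:124810586-124814158), stood at 5384, 3122 and 2998 in WT and 6427, 8367 and 7687 in KO, with no overlap and a log2 change of 1.01 (SE 0.23, limma adjusted p = 0.0305). Pgk1, phosphoglycerate kinase, the first enzyme of the chain to yield ATP, stood at 3368, 1959.6 and 2120.2 in WT and 4235, 5628 and 4343 in KO. WT-1 again lay nearest to the KO libraries, and the log2 change was 0.96 (SE 0.22, limma adjusted p = 0.0304).

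Gapdh, which oxidises glyceraldehyde 3-phosphate and often serves as a reference gene in quantitative PCR, stood at 654, 519 and 625 normalised counts in WT and 925, 1139 and 949 in KO. All KO libraries were above all WT libraries, WT-1 included, and the log2 change was 0.75 (SE 0.13, limma adjusted p = 0.0286). Per kilobase of exon, taken as the union over all annotated transcripts (4.133 kb for Gapdh), its level was 145 in WT. That was below the neighbouring steps Tpi1 (1393) and Pgk1 (1106). Gapdh has near-identical processed copies in the mouse genome, and how multiply mapped reads were handled is not given in the sources used here, so its level is uncertain. The same holds for other enzymes of this stretch with processed copies, such as Aldoa, Tpi1, Pgk1, Pgam1, Eno1 and Ldha.

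Pgam1, the phosphoglycerate mutase, rose by 0.73 on the log2 scale (SE 0.16, limma adjusted p = 0.0304), and Gpi1, which interconverts glucose 6-phosphate and fructose 6-phosphate, by 0.42 (SE 0.12, limma adjusted p = 0.0444). In neither did the groups overlap, though edgeR on the recovered reads put Gpi1 at an adjusted p of 0.0501. The aldolases did not pass the test. Aldoa, the isozyme of muscle and most other tissues, stood at 10379.9, 8982 and 9473 normalised counts in WT and 12105, 14774 and 12139 in KO. Its KO libraries were all above WT, but the log2 change of 0.43 (SE 0.14) had a limma adjusted p of 0.0627. Aldoc, the brain isozyme, stood at 63.0, 11.9 and 27.2 in WT and 82.4, 108 and 45.4 in KO, and KO-3 lay below WT-1. Its log2 change of 1.40 (SE 0.59, limma adjusted p = 0.125) rests on few reads, 12 in WT-2.

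**Figure D2:**
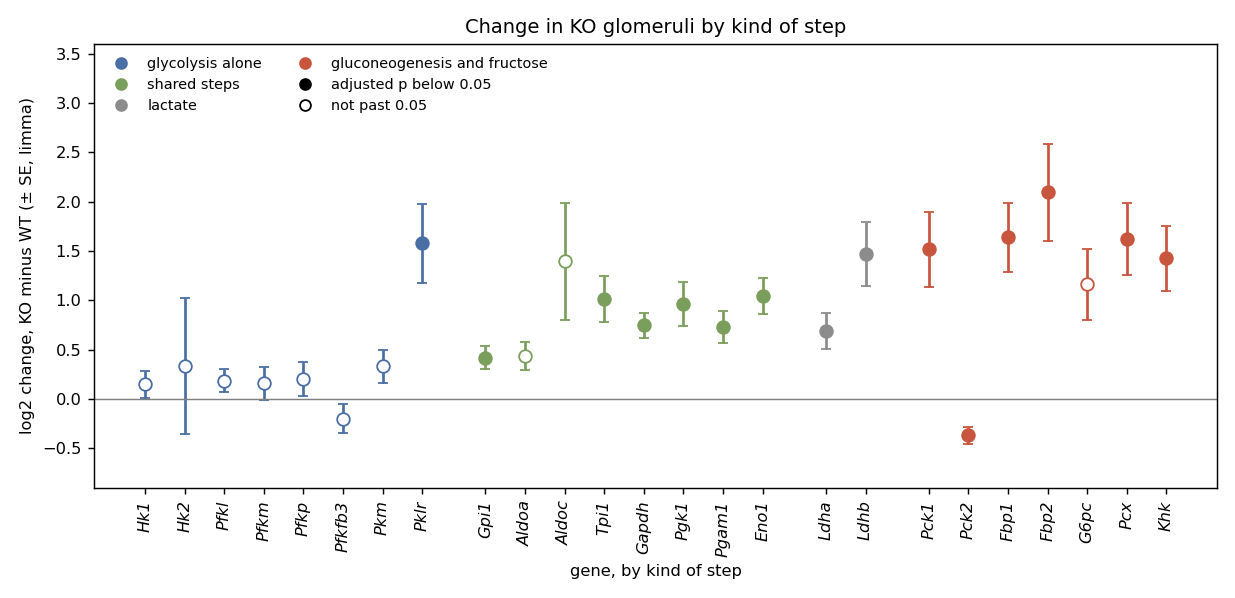
Log2 change of KO against WT with its standard error from limma for the genes of each kind of step; filled symbols have an adjusted p below 0.05 and open symbols do not. The glycolysis-alone genes other than Pklr lie between -0.20 and 0.33, the shared steps between 0.42 and 1.40, and the gluconeogenesis and fructose genes other than Pck2 between 1.162 and 2.09.

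Lactate dehydrogenase is a tetramer of the subunits encoded by Ldha, typical of tissues that make lactate, and Ldhb, typical of tissues that use it. Ldhb (chr6:142490249-142507957) stood at 7936, 3295 and 3861 normalised counts in WT and 11092, 15759 and 12332 in KO. Every KO library was above WT-1, which itself was above the other WT libraries, and the log2 change was 1.47 (SE 0.32, limma adjusted p = 0.0299). Ldha stood at 4499, 3193 and 3049 in WT and 4796, 6019 and 6367 in KO. KO-1 exceeded WT-1 only narrowly, and the log2 change was 0.69 (SE 0.18, limma adjusted p = 0.0381).

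The pyruvate dehydrogenase complex commits pyruvate to the citrate cycle. Both of its subunits measured here rose: Pdha1, the catalytic alpha subunit, by 0.68 on the log2 scale (SE 0.18, limma adjusted p = 0.0371) and Pdhb, the beta subunit, by 0.40 (SE 0.11, limma adjusted p = 0.0428). Pdha1 stood at 4052, 2679 and 3068 normalised counts in WT and 5004, 6051 and 4564 in KO, and the groups of neither subunit overlapped. Of the kinases that inactivate the complex, Pdk1 and Pdk4 did not pass the test. Pdk3, of the further pathway genes and named here after its values were seen, was higher, at 363, 289 and 277 in WT and 398, 469.9 and 458 in KO, a log2 change of 0.52 (SE 0.14, limma adjusted p = 0.0380). Pdk1, induced by low oxygen, had a log2 change of 0.65 (SE 0.30, limma adjusted p = 0.147) and Pdk4, induced by fasting, 0.10 (SE 0.29, limma adjusted p = 0.826). KO-3 lay among the WT libraries for Pdk1 and Pdk4.

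Among the gluconeogenic enzymes 4 of 6 rose, 1 fell and 1 did not pass the test, with a median log2 change of 1.57. Fbp1, the fructose bisphosphatase of liver and kidney (chr13:62864753-62888298), stood at 5144, 2462 and 1954 normalised counts in WT and 7142, 10460.3 and 10027 in KO. All KO libraries were above WT-1, and WT-1 was well above WT-2 and WT-3. The log2 change was 1.64 (SE 0.35, limma adjusted p = 0.0291), with means of 3187 ± 1714 (SD, n = 3) in WT and 9209 ± 1804 (SD, n = 3) in KO. Fbp2, the muscle isozyme, lies next to it (chr13:62836884-62858400) and was counted far less, at 68.4, 20.8 and 18.9 in WT and 98.3, 134 and 173 in KO. No library of one group reached the other, and its log2 change of 2.09 (SE 0.49, limma adjusted p = 0.0310) was the greatest of the 31.

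Pcx, pyruvate carboxylase, the mitochondrial first step (chr19:4510472-4621752), stood at 2379, 954 and 1016 normalised counts in WT and 2969.7, 4969.8 and 4597 in KO. The groups did not overlap, and the log2 change was 1.63 (SE 0.37, limma adjusted p = 0.0304). G6pc, the glucose-6-phosphatase that releases free glucose (chr11:101367716-101377903), stood at 2876, 1151 and 1602 in WT and 3121, 3358 and 5678 in KO. KO-1 lay just above WT-1 and KO-3 far above all others, and the log2 change of 1.162 (SE 0.36) had a limma adjusted p of 0.0555, short of the threshold. Without WT-1 that value was 0.00573, with a log2 change of 1.52, and without any one of the other libraries it was 0.0697 to 0.163, with log2 changes of 0.86 to 1.32.

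Phosphoenolpyruvate carboxykinase, which turns oxaloacetate into phosphoenolpyruvate, has a cytosolic form, Pck1 (chr2:173153073-173159274), and a mitochondrial form, Pck2 (chr14:55540263-55550020), and they moved in opposite directions. Pck1 stood at 4518, 1910.1 and 1599 normalised counts in WT and 5689, 9092 and 6243 in KO, all KO libraries above all WT libraries. Its log2 change was 1.52 (SE 0.38, limma adjusted p = 0.0356), and edgeR on the recovered reads put it at the threshold, at 0.0503. Pck2 stood at 710.5, 785 and 714 in WT and 585, 571 and 553 in KO, all KO libraries below all WT libraries. It fell by 0.37 on the log2 scale (SE 0.09, limma adjusted p = 0.0305), and under scaling to equal endothelial and mesangial markers its change became 0.32, again below that lift.

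Khk, ketohexokinase, phosphorylates fructose at the entry to its breakdown (chr5:30921436-30931248). It stood at 2937, 1416 and 1211 normalised counts in WT and 3599.6, 5376 and 5069 in KO. WT-1 was again the nearest to the KO libraries without reaching them, and the log2 change was 1.43 (SE 0.33, limma adjusted p = 0.0304). Over the 7 genes of gluconeogenesis and fructose together the median log2 change was 1.52, or 1.97 without WT-1, beside 0.56 and 0.66 over the 18 of glycolysis and lactate.

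Ratios taken within a library do not depend on its scaling, so isozymes and carriers that serve the same step were compared in that way. The Pck1 to Pck2 ratio was 6.36, 2.43 and 2.24 in the WT libraries and 9.73, 15.9 and 11.3 in the KO libraries, or 3.68 ± 2.32 against 12.3 ± 3.23 (SD, n = 3 each). The Ldhb to Ldha ratio was 1.76, 1.03 and 1.27 in the WT libraries and 2.31, 2.62 and 1.94 in the KO libraries, or 1.35 ± 0.374 against 2.29 ± 0.341 (SD, n = 3 each). The Slc2a2 to Slc2a1 ratio was 1.503, 0.533 and 0.527 in the WT libraries and 1.58, 2.28 and 3.14 in the KO libraries, or 0.854 ± 0.562 against 2.33 ± 0.778 (SD, n = 3 each). The Pklr to Pkm ratio was 0.0248, 0.0140 and 0.00913 in the WT libraries and 0.0269, 0.0292 and 0.0562 in the KO libraries, or 0.0160 ± 0.00802 against 0.0374 ± 0.0163 (SD, n = 3 each). In all 4 every KO library exceeded every WT library, and the exact permutation p was 0.1 in each, two-sided, the smallest that 3 against 3 libraries allow. The Fbp2 to Fbp1 and Aldoc to Aldoa ratios overlapped between the groups, with an exact permutation p of 0.2 each. These are 6 of the 7 ratios computed. The other, Fbp1 to Pfkl, sets the bisphosphatase against a subunit of the kinase it opposes, and was 7.46, 4.16 and 3.41 in WT and 10.6, 13.2 and 15.6 in KO, also without overlap at an exact permutation p of 0.1. After Benjamini-Hochberg adjustment over the 7 ratios the smallest of these p-values was 0.14.

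**Figure D3:**
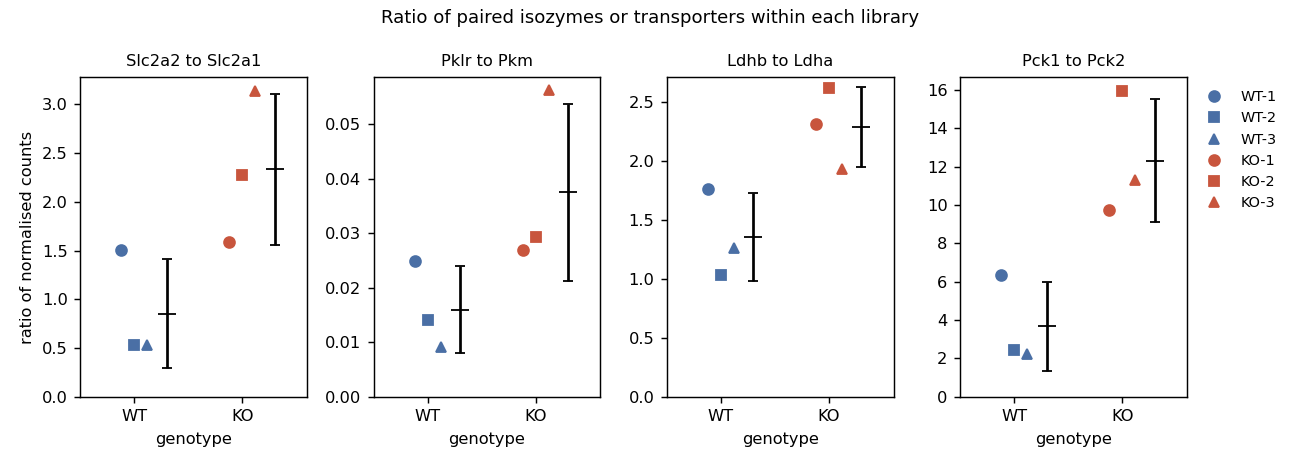
Ratio of normalised counts of a pair of genes within each library, by genotype; symbols are single libraries and the black bars the mean and SD of 3 libraries. KO libraries lie above WT libraries in each panel, by the smallest margin for Slc2a2 to Slc2a1 (1.58 in KO-1 against 1.503 in WT-1) and Pklr to Pkm (0.0269 against 0.0248).

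Levels were compared between genes per kilobase of GENCODE M21 exon. The length was the union of exons over all annotated transcripts of a gene, such as 3.506 kb for Slc2a1 and 5.755 kb for Slc2a2. The order of genes depends on this length: by counts alone Slc2a2 exceeded Slc2a1 in KO-1, at 977 against 617. In WT the highest mean level was that of Ldhb, 3204 normalised counts per kilobase, then Aldoa at 2591 and Fbp1 at 1872, and in KO Ldhb at 8319, Fbp1 at 5411 and Aldoa at 3506. The lowest was Hk2, with 1.89 in WT and 2.14 in KO, against 174 and 194 for Hk1. Pkm at 959.8 in WT was far above Pklr at 24.3, and in KO the levels were 1223 and 67.3. Pck1 exceeded Pck2 in both genotypes, at 780.3 against 94.3 in WT and 2044 against 73.0 in KO. Slc2a1 at 155 was above Slc2a2 at 76.6 in the WT means, and in the KO means the order was the reverse, 161 against 222, which KO-2 and KO-3 showed and KO-1, at 176 against 169.8, did not.

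The level of proximal tubule markers moved with these genes across libraries. The mean log2(normalised count + 1) of the 21 markers was 12.25, 11.04 and 11.15 in WT and 12.65, 13.16 and 13.10 in KO, and the median log2 change of the markers was 1.52. Set against that marker mean within each library, 5 of the 7 genes of gluconeogenesis and fructose overlapped between the genotypes, Fbp2 lay higher in KO and Pck2 lower, and the median relative change was 0.03 on the log2 scale. Of the 8 genes of glycolysis alone, 6 had all KO libraries below the WT ones on this relative scale, with a median of -1.30, and of the 8 shared steps 5 did, with a median of -0.64. Of all 31 genes, 18 lay lower in KO and 2 (Fbp2 and Slc2a2) higher, against 81.3% and 0.38% of all genes tested. The median relative change of all genes tested was -1.50. All 12 distal tubule markers also had a higher mean in KO, with a median log2 change of 1.34, and 3 passed the test. In 6 of the 12 every KO library lay above every WT library, and in 6 the groups overlapped. WT-1 was the highest WT library for all 12. Set against the proximal tubule marker mean, all 12 overlapped between the genotypes. Whether the 31 genes followed proximal or distal tubule more closely was not tested.

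In a fit with the marker mean as a covariate no gene of the 31 had an unadjusted limma p under 0.05, against 366 of the 13946 genes tested, and their median log2 change was -0.03. The genotypes do not overlap in the marker level, so genotype and marker level cannot be told apart, and this fit leaves Parva itself at -1.47 with a limma adjusted p of 0.421. The change left in this fit was 0.42 for Gapdh, 0.44 for Slc2a1 and 0.30 for Eno1 at the upper end, and -0.42 for Pfkp, -0.49 for Pfkfb3, -0.56 for Aldoc and -0.85 for Hk2 at the lower end.

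**Figure D4:**
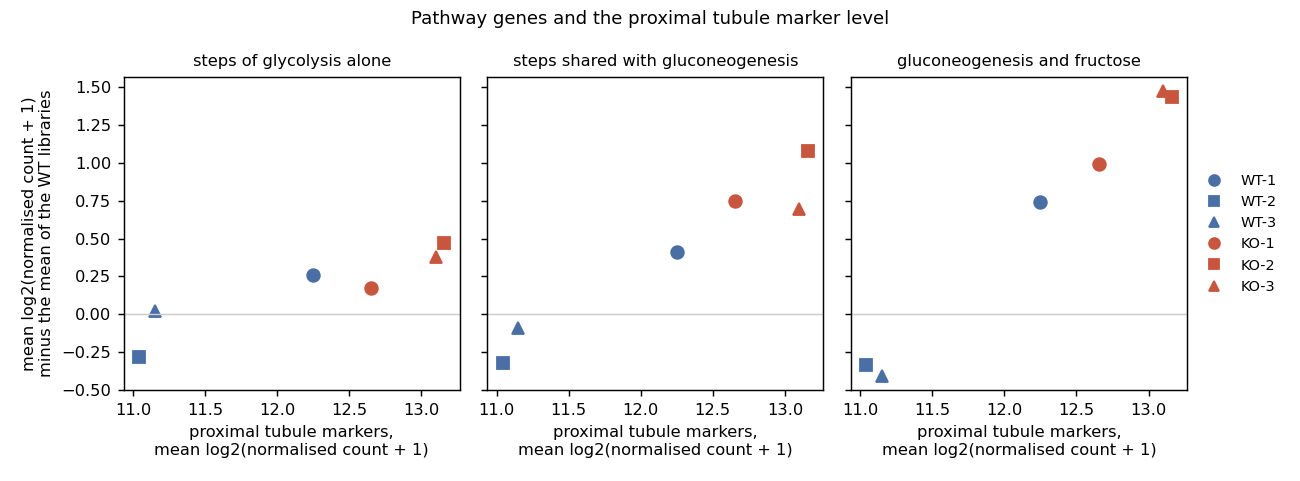
Mean log2(normalised count + 1) of 3 groups of genes in each library, minus the mean of the WT libraries, against the mean log2 level of 21 proximal tubule markers in the same library. WT-1, with a marker level of 12.25, lies between WT-2 and WT-3 (11.04 and 11.15) and the KO libraries (12.65 to 13.16) in the panels of shared steps and of gluconeogenesis and fructose, and above KO-1 in the panel of glycolysis alone.

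Further genes of the pathway were counted from a list of 44, of which 41 were tested. Of these, 21 were higher in KO and 2 lower, against 13.5% and 8.58% of all genes tested. The highest log2 change of the list was that of Slc5a10, a sodium-coupled carrier of mannose and fructose in the tubule, which stood at 643, 218 and 235 normalised counts in WT and 941, 1419 and 1337 in KO, a change of 1.92 (SE 0.40, limma adjusted p = 0.0288). Slc2a5, the fructose carrier, changed by 1.73 (SE 0.33, limma adjusted p = 0.0286), and Sord, sorbitol dehydrogenase, which makes fructose from sorbitol, by 1.54 (SE 0.30, limma adjusted p = 0.0286). KO libraries were above WT libraries for all 3. Slc2a3, a high-affinity glucose carrier, was lower, at 75.0, 72.2 and 85.6 in WT and 31.01, 30.3 and 43.1 in KO, a log2 change of -1.15 (SE 0.22, limma adjusted p = 0.0286). Pdp1, the phosphatase that reactivates pyruvate dehydrogenase, was lower too, with a log2 change of -0.50 (SE 0.14, limma adjusted p = 0.0447). Of the 8 listed genes for other subunits and regulators of the complex and for the pyruvate carriers, 7 were higher and 1, Pdp1, lower, and of 6 lactate carriers 3 were higher.

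Of 34 genes of adjoining branches 22 were higher and 1 lower, against 13.5% and 8.58% of all genes tested. The citrate cycle and its shuttles held most of them, with 15 of 16 genes higher, against 3 of 8 of the pentose phosphate pathway and 4 of 10 of glycogen metabolism. Me1, cytosolic malic enzyme, had the widest log2 change, 1.41 (SE 0.30, limma adjusted p = 0.0289), then Mdh1, cytosolic malate dehydrogenase, with 1.19 (SE 0.27, limma adjusted p = 0.0304). Suclg2, a succinyl-CoA ligase subunit, and Got2, mitochondrial aspartate aminotransferase, changed by 1.11 and 0.93 (limma adjusted p = 0.0286 and 0.0287). Pygm, the muscle form of glycogen phosphorylase, was the one lower gene, at 568, 653 and 686 normalised counts in WT and 342, 405 and 327 in KO, a log2 change of -0.83 (SE 0.12, limma adjusted p = 0.0286).

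Of 27 regulators 26 were tested, and 8 were higher and 4 lower, against 13.5% and 8.58% of all genes tested. Ppara, a fatty acid sensor, Hnf4a, the factor HNF4 alpha of tubule and liver, and Klf15, a driver of gluconeogenesis in fasting, had log2 changes of 1.65, 1.59 and 1.29 (limma adjusted p = 0.0376, 0.0344 and 0.0286). Txnip, a glucose-induced brake on glucose uptake, was lower, at 12164, 13214 and 11824 normalised counts in WT and 7472, 6722 and 7452 in KO, a log2 change of -0.78 (SE 0.12, limma adjusted p = 0.0286). Also lower were Epas1, the hypoxia factor HIF-2 alpha of endothelial cells among others, with -0.73, Creb1, the cyclic AMP response factor, with -0.50, and Foxo1, a factor that insulin restrains, with -0.38 (limma adjusted p = 0.0286, 0.0286 and 0.0304). Among the 5 hypoxia genes tested 1 was higher and 1, Epas1, lower, counts too small to set against those shares. The proximal tubule marker level given above was higher in KO and the glomerular marker levels were lower. The median log2 change was 0.61 for the pathway list, 0.59 for the branches and 0.07 for the regulators. The part of the marker levels in these changes was not tested.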

How the data were processed

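RNA of whole glomeruli from 3 KO and 3 WT mice was sequenced with a directional kit, per the labels' protocols. The authors deposited 1 table of normalised counts, a signal in which reads per gene are divided by a size factor, per the file headers and the values. The submitters' processing notes name bcl2fastq 2.19, cutadapt 1.16.5, HISAT2 2.1, featureCounts 1.6.4, DESeq2 2.11.40.6 and mm10. How strand and multiply mapped reads were handled, and with which annotation, is not given in the sources used here.

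Every value was a whole multiple of 1 step per library (100% whole at a tolerance of 0.01), so whole reads were recovered. Of 10 genes counted mostly in a single library, none is among the 31. Together they took 30.1%, 17.4% and 32.4% of the reads in WT-1 to WT-3 and 28.5% in KO-1. In KO-2 and KO-3 they took 0.241% and 0.239%. With their reads the libraries held 11886828 to 20552984 whole reads, and without them 11283413 to 14310785. The main test was limma 3.58.1 (R 4.3.3) with a variance trend on log2(normalised count + 1), genotype only, for genes with a mean of at least 10. Fold changes on this scale understate the change of low genes. With 3 against 3 libraries an exact permutation test cannot go below 0.1. The alternatives edgeR 4.0.16 and, on the same recovered reads, DESeq2 1.42.0 called 2841 and 3810 genes against 3085 for limma. The other alternatives were other scalings, filters, pseudocounts and priors, a replicate block, a covariate of proximal tubule markers, leaving out the single-library genes and leaving out each library. The steps were tested on simulated data.

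Symbols came from RefSeq (25275 identifiers) and GENCODE M21 (25293 in all), and 1886 identifiers stayed unnamed. The genes, lists and tests were chosen with earlier results of these data known. Named are all 31 genes, Parva and Hnf4a, and from the lists of further pathway, branch and regulator genes up to 4 past the threshold in each direction with a mean of at least 50 and the largest log2 change. A few genes that this rule names, and the promoter strings of one factor, are not reported here.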

Additional observations from a re-analysis of the deposited data

How the results depend on the processing

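The 17 genes higher and 1 lower in KO, and the medians of 0.56 (glycolysis and lactate) and 1.52 (gluconeogenesis and fructose), stayed within 1.5 times the main count, or within the spread of replicates, under TMM and upper quartile scaling, DESeq2, edgeR, all filters, both pseudocounts, the robust prior and leaving out the single-library genes. edgeR left Gpi1, Pdhb and Pck1 short of the threshold (adjusted p of 0.0501, 0.0501 and 0.0503). Gpi1 and Pdhb also missed it under upper quartile scaling (0.0546 and 0.0519) and without a filter (0.0569 and 0.0518), and Gpi1 with a minimum mean of 1 (0.0503). A minimum mean of 50 left out Hk2. DESeq2 added Aldoa and G6pc (0.00765 and 0.0108).

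With libraries scaled to equal endothelial and mesangial markers the counts were 27 and 0 and the medians 1.25 and 2.21, with Pfkfb3 at 0.49 and Pck2 at 0.32. Under upper quartile scaling Slc2a1 was at -0.011. Without the variance trend 0 of the genes followed here were higher and 0 lower (19 and 1 at an unadjusted p under 0.05). Of all 13946 genes tested, limma then passed 1, and 5305 had such an unadjusted p. Parva, at -1.74, had a limma adjusted p of 0.0537. The cause was not tested.

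With the proximal tubule covariate 0 and 0 passed, beside 0 of all 13946 genes tested. The medians were -0.0013 and -0.092 and Parva was at -1.47. The sign turned for Hk2 (-0.85), Pfkl (-0.13), Pfkm (-0.032), Pfkp (-0.42), Aldoc (-0.56), Tpi1 (-0.027), Pklr (-0.054), Ldha (-0.047), Pdk4 (-0.36), Pck1 (-0.17), Fbp2 (-0.070), G6pc (-0.25), Pcx (-0.092) and Khk (-0.079).

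With a replicate block 0 of the genes followed here were higher and 0 lower (20 and 1 at an unadjusted p under 0.05). Of all 13946 genes tested, limma then passed 0, and 4284 had such an unadjusted p. Parva, at -1.74, had a limma adjusted p of 0.0868. Deviations of same-numbered libraries correlated at -0.23, -0.19 and -0.01. These values show no pairing by number, but 3 libraries per genotype are too few to exclude one. Leaving out each library in turn gave 0 to 20 genes higher and 0 to 1 lower, medians of 0.50 to 0.71 and 1.22 to 1.97, and Parva at -1.82 to -1.66, with an adjusted p of 0.0793 without WT-2 and 0.0533 without WT-3. Only genes short of the threshold turned sign there: Hk2 ranged from -0.34 to 0.82, Pfkm from -0.0085 to 0.33, Pdk4 from -0.19 to 0.29 and Slc2a1 from -0.047 to 0.19. Few reads limit Hk2 and Aldoc, with 3 to 23 and 12 to 100 reads per library.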
